A study of Peromyscus californicus with 17 samples.

Results

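The mammalian circadian clock is a feedback loop of transcription that runs in nearly every tissue, the lung included. CLOCK or its close relative NPAS2 pairs with BMAL1 and switches on the Per and Cry genes, whose proteins return to the nucleus and hold that pair in check. A second loop, made of the repressors Nr1d1 and Nr1d2 (REV-ERBs) and the activating ROR receptors, sets the level of Bmal1, Npas2 and Clock. Output genes such as Dbp are driven by the same pair, and in a tissue sampled around the day they peak in a different phase from Bmal1 and Npas2.

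Clock genes were taken as the 10 rows of the expression table named Clock, Npas2, Per1, Per2, Per3, Cry1, Cry2, Nr1d1, Nr1d2 and Dbp, of 27786 genes in all. They were chosen by name and not by their values, although earlier results of these data were known, and all 10 were measured in all 17 animals. RNA had been sequenced from the lungs of male Peromyscus californicus of the genetically diverse stock IS, a monogamous deer mouse, with 1 library per animal. The 6 bonded males (B1 to B6) had lived with a mate for about 4 months. The 6 bond-disrupted males (BD1 to BD6) had been paired for 4 months and then taken from the mate, and their lungs were collected on day 7 after that. The 5 virgin males, V2 to V6, were matched in age and had been kept in group cages. All animals were at least 1 year old, and the labels name no allele or drug in any group. Same-numbered animals were siblings, except that V3 and V4 were cousins of B3 and BD3 and of B4 and BD4. The hour at which each lung was collected is not given in the sources used here, so animals cannot be placed along the day.

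The deposited unit is FPKM, the fragments per kilobase of gene per 1000000 mapped fragments. In the deposited table the length that divided a value was not that of its own gene. The first column was divided by the length of the gene 1 row above and each later column by that of the gene 1 row further up, so the divisor differed between animals for the same gene. As a result the 10 clock genes spanned 9.2-fold (Dbp) to 163-fold (Npas2) across animals as deposited. Npas2, for example, lay between 1.14 and 185.8 FPKM as deposited. Depths and lengths were solved from the whole numbers of reads behind the values, and FPKM was recomputed with each gene's own length. All 17 values came out as whole reads, within 0.01 of a read, for 9 of the 10 clock genes and 15 of 17 for Per1. For Per1 the exceptions were BD1 (3081.66 reads) and BD2 (11497.7 reads), so these values are less certain. The lengths were solved to make values whole, so this is a weak check. Of the 200 values sharing the lengths that divide Npas2, 85.5% were whole, against at least 99.5% for each other clock gene. On the recomputed scale the median SD of log2(FPKM + 1) over animals was 0.319 for the 10 genes, against 1.51 as deposited. Values below are FPKM per own gene length unless said otherwise. The fewest reads behind any value of a clock gene were 244, for Npas2 in V5.

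**Figure D1:**
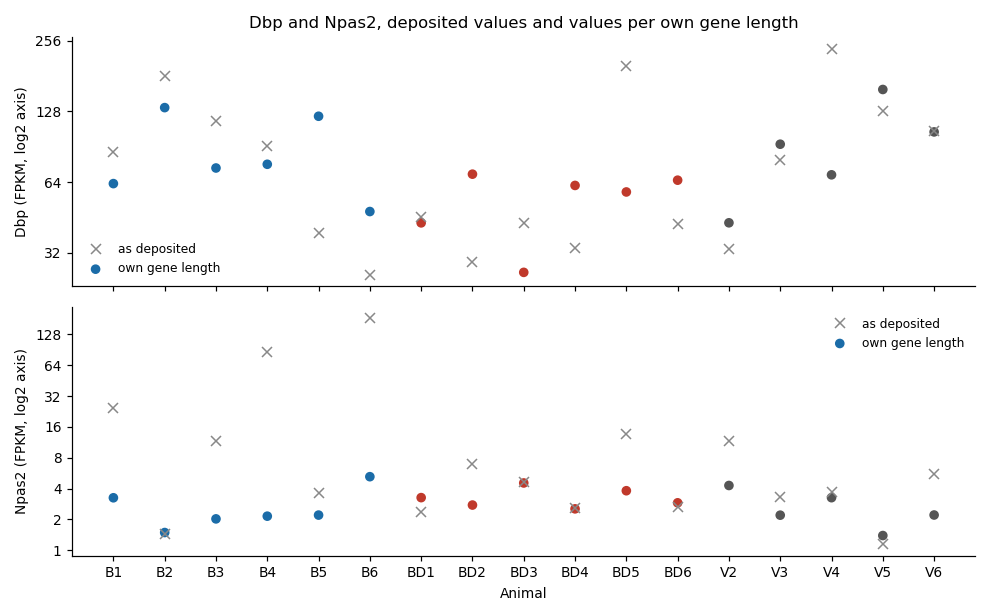
Dbp (top) and Npas2 (bottom) in each of the 17 animals, in FPKM on a log2 axis, as deposited (crosses) and per own gene length (filled circles, blue for bonded, red for bond-disrupted and grey for virgin). Npas2 spans 1.14 to 185.8 FPKM as deposited and 1.39 to 5.22 per own gene length.

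Nr1d1, the more abundant REV-ERB, stood highest among the clock genes (118 ± 18.4 FPKM, mean ± SD, n = 17 animals). It exceeded Dbp, a transcription factor of the PAR bZIP family (76.9 ± 35.0), in 16 of 17 animals. Cry2 (28.9 ± 3.81), a repressor of CLOCK and BMAL1, and Nr1d2 (27.9 ± 4.93), the second REV-ERB, came next and did not differ beyond their spread, with Cry2 above Nr1d2 in 11 of 17. Per1 (9.74 ± 6.20), a repressor that also responds quickly to outside signals, and Clock (9.57 ± 1.30), the activator itself, held that order in 9 of 17. Cry1 (6.59 ± 0.798) lay above Per3 (6.21 ± 2.12) in 11 of 17. Per2 (5.58 ± 3.24) and Npas2 (2.91 ± 1.07) were lowest, with Per2 above Npas2 in 12 of 17. Nr1d1 overlaps another gene at its end in mammals, and although the library kit keeps strand, the strand setting of the counting is not given in the sources used here, so its level is less certain.

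The genes fell into 5 with a narrow range over animals and 5 with a wide one. The highest animal was under 2-fold above the lowest for Clock (1.65), Cry1 (1.69), Cry2 (1.71), Nr1d1 (1.77) and Nr1d2 (1.79). It was at least 3-fold above for Per3 (3.55), Npas2 (3.76), Dbp (6.00), Per1 (8.26) and Per2 (8.76). The same animals stood at the ends for several genes. BD3 was lowest of all 17 in 6 of the 10 genes (Per1, Per2, Cry2, Nr1d1, Nr1d2 and Dbp), and V5 was highest in 5 (Per3, Cry2, Nr1d1, Nr1d2 and Dbp) and lowest in Npas2.

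**Figure D2:**
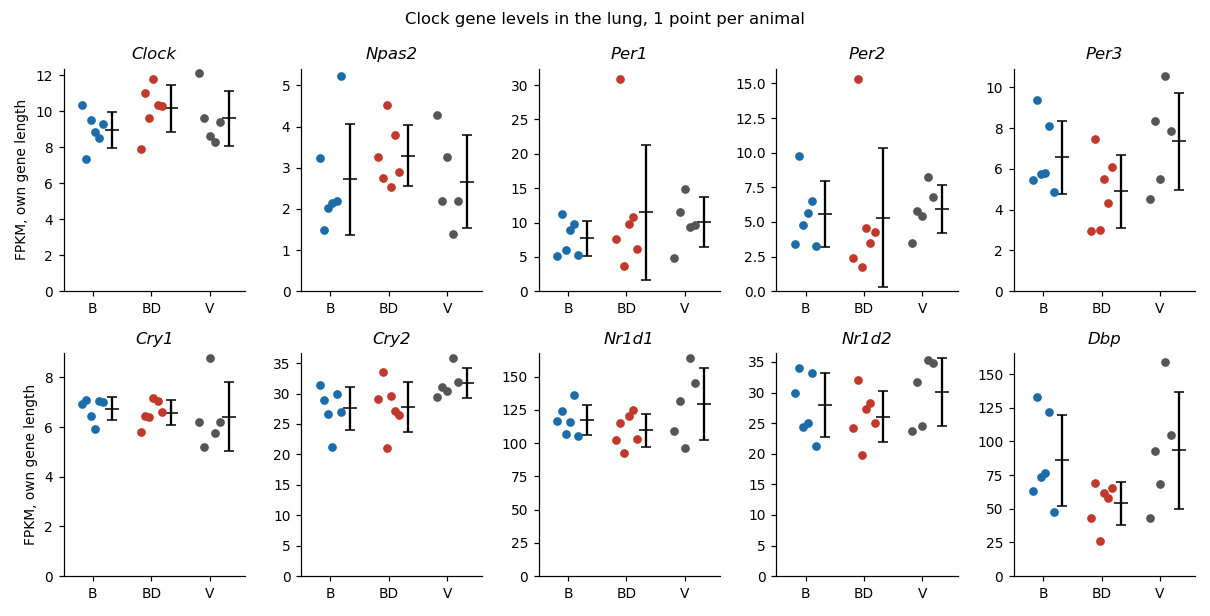
FPKM per own gene length of each clock gene in bonded (B, n = 6), bond-disrupted (BD, n = 6) and virgin (V, n = 5) animals, 1 point per animal in the order of the animals' numbers, with the mean and SD of the group beside the points. The groups overlap for all 10 genes, and 1 bond-disrupted animal, BD2, lies at 30.9 for Per1 and 15.3 for Per2.

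The first comparison asked whether pairing, or its disruption, went with other levels of clock genes. No clock gene was called between any 2 of the groups. Dbp was the gene with the largest difference. It lay at 48.0, 74.9 and 133 FPKM (lowest, median and highest) in bonded animals, at 26.4, 60.1 and 69.2 in bond-disrupted animals and at 43.0, 92.9, 68.8, 159 and 105 in V2 to V6. The bond-disrupted animals had no value above 69.2, while 4 of the bonded and 3 of the virgin animals did, and the groups overlapped. Against bonded animals, Dbp in bond-disrupted ones had a log2 fold change of −0.64 ± 0.32 (SE, adjusted p = 0.856, limma), and virgins against bond-disrupted animals had one of 0.72 ± 0.33 (adjusted p = 0.948).

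Per3, a repressor of the Period family, had the same order of groups. It lay at 4.86, 5.78 and 9.39 FPKM in bonded animals, at 2.97, 4.91 and 7.49 in bond-disrupted animals and at 4.55, 8.35, 5.49, 10.5 and 7.85 in V2 to V6. Disruption against bonding gave a log2 fold change of −0.38 ± 0.22 (adjusted p = 0.862, limma), and virgins against disruption gave 0.51 ± 0.23 (adjusted p = 0.948). The groups overlapped here too. Npas2 lay at 1.49, 2.17 and 5.22 FPKM in bonded animals, at 2.53, 3.08 and 4.53 in bond-disrupted animals and at 4.28, 2.20, 3.25, 1.39 and 2.20 in V2 to V6. Disruption against bonding gave 0.26 ± 0.21 for Npas2 (adjusted p = 0.876, limma).

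Over all genes, 0.0% of 14343 were called in each of the 3 comparisons (adjusted p under 0.1 and at least 2-fold, limma). The same count by limma's voom on the recovered reads was 0 of 16463. At an unadjusted p under 0.05, 5.88% of genes passed in bond-disrupted against bonded animals, 3.71% in virgin against bonded animals and 4.16% in virgin against bond-disrupted animals. Of the 10 clock genes, 0, 0 and 2 passed that mark, the 2 being Dbp and Per3 between virgin and bond-disrupted animals. These counts moved with single animals. They were 3, 0 and 4 without BD2 and 0 in all 3 comparisons without V3 or V6, and the last of them was also 0 without BD1, BD3 or V5. They were 0 in all 3 when families were blocked, and also where the row-minus-column effect was removed by an additive fit on the log scale in place of solved lengths. With the place in the column order as the block they were 2, 0 and 3. In bond-disrupted against bonded animals 4 clock genes were higher and 6 lower, with a median log2 fold change of −0.06 against 0.01 over all genes. In virgin against bonded animals 8 were higher and 2 lower, with a median of 0.11 against 0.01. Virgins had 7 higher and 3 lower than bond-disrupted animals did, with a median of 0.19 against 0.00. The comparisons share groups and so are not independent.

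**Figure D3:**
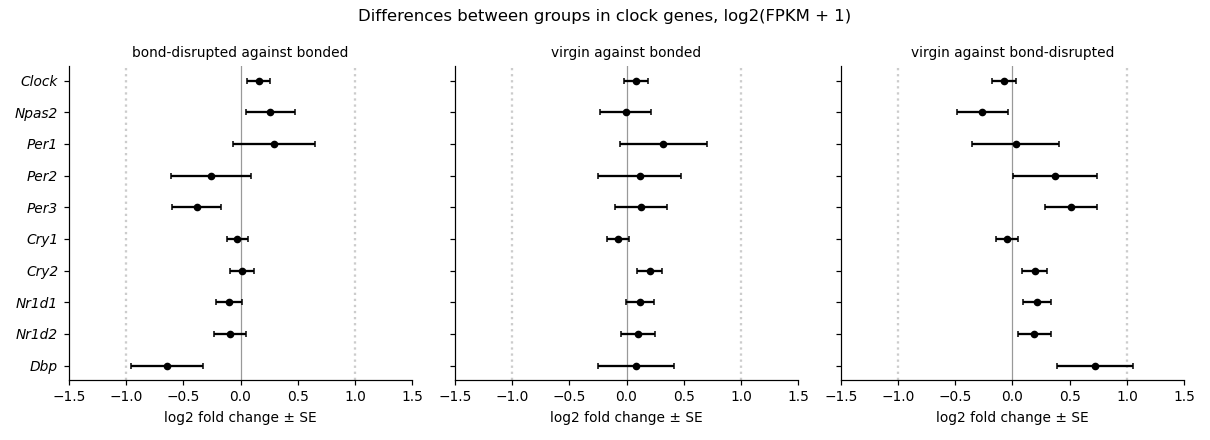
Log2 fold change ± SE of each clock gene in the 3 comparisons between groups, on log2(FPKM + 1) per own gene length, with dotted lines at the 2-fold mark. Every point lies inside the 2-fold lines, and Dbp lies farthest from 0 in bond-disrupted against bonded (−0.64) and in virgin against bond-disrupted animals (0.72).

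Of the other genes of the clock, listed by role, 19 of 20 had a row, own length and all values solved, and none was called in any comparison. Bmal1, the partner of CLOCK and NPAS2, was at 1.36 ± 0.476 FPKM (SD, n = 6) in bonded, 2.20 ± 0.820 (n = 6) in bond-disrupted and 1.36 ± 0.602 (n = 5) in virgin animals. Its log2 fold change of 0.43 ± 0.18 in bond-disrupted against bonded animals had an adjusted p of 0.834 (limma). Ciart, a repressor of the same pair, was at 3.74 ± 0.814, 2.46 ± 0.772 and 3.59 ± 1.27 FPKM in the bonded, bond-disrupted and virgin animals. Its log2 fold change of −0.46 ± 0.17 in bond-disrupted against bonded animals had an adjusted p of 0.818 (limma). The kinase gene Csnk1d, whose product marks PER proteins for degradation, was nearly flat, from 28.4 to 37.0 FPKM over all animals. Bmal2, a relative of Bmal1, was low, and its 5 virgin animals (0.267 to 0.570 FPKM) did not overlap the 6 bonded ones (0.604 to 1.29), although its adjusted p in limma was 1. Over all genes tested, 0.488% had virgin and bonded animals that did not overlap.

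The second question was whether clock genes rose and fell together from animal to animal. They did for 8 of the 10 genes: Npas2 had negative r with Dbp, the Period genes and the REV-ERBs, and Clock and Cry1 took part in no pair that passed the mark below. With the mean of each group subtracted on the log2(FPKM + 1) scale, 24 of the 45 pairs of clock genes had a permutation p under 0.05 over the 17 animals (two-sided, 100000 permutations within groups), 18 of them positive and 6 negative. The median absolute r of the 45 pairs was 0.508. Between a clock gene and the 14333 other genes tested it was 0.206. As deposited, 6 of the 45 pairs passed the same mark and the median absolute r was 0.236. The share of all genes passing this permutation test was not computed. In the limma fits below, 365 (on Npas2) to 2908 (on Clock) of 14342 genes had an unadjusted p under 0.05. The permutations did not keep brothers together.

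**Figure D4:**
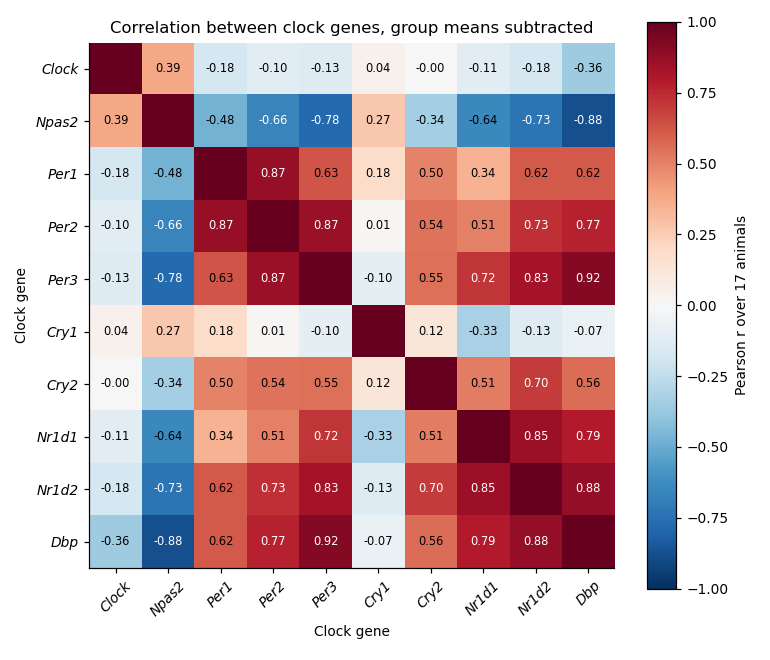
Pearson r over 17 animals between each pair of clock genes on log2(FPKM + 1) per own gene length, with group means subtracted, in red for positive and blue for negative values. Npas2 is opposite in sign to Dbp (−0.88), Per3 (−0.78) and Nr1d2 (−0.73), and Clock and Cry1 are pale against nearly all others.

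To place each pair against all genes, every gene was regressed with limma on the level of a clock gene beside the group, and p-values were adjusted over all 14342 other genes. For Dbp, 5 genes (0.0349%) followed its level at an adjusted p under 0.1, and 3 of these were clock genes: Per3, Npas2 and Nr1d2. The others were Hlf, which belongs to the same PAR bZIP family as Dbp, and Ddx39a, which encodes an RNA helicase.

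Dbp and Per3 gave the closest relation. The animal with the most Dbp, V5 (159 FPKM), also had the most Per3 (10.5), and BD3 and BD1, which had the 2 lowest values of Per3 (3.03 and 2.97), had 26.4 and 43.0 of Dbp. Pearson's r was 0.92 (permutation p = 2e-05) and Spearman's rho 0.94 (permutation p = 2e-05). Within the 6 bonded animals r was 0.98 and within the 6 bond-disrupted animals 0.85. Without the 2 animals farthest from the median of Per3, B2 and V5, r was 0.88 (permutation p = 3e-05). Per unit of log2(FPKM + 1) of Dbp, Per3 rose by 0.62 ± 0.08 (SE, adjusted p = 0.00892, limma). This call held without each animal in turn (adjusted p from 0.00241 to 0.0654) and when families were fitted as a block (adjusted p = 0.0971), and it was lost after the additive fit (adjusted p = 0.545).

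Npas2 ran opposite to Dbp. Npas2 was highest in B6 (5.22 FPKM), BD3 (4.53) and V2 (4.28), where Dbp was at 48.0, 26.4 and 43.0, and lowest in V5 (1.39) and B2 (1.49), where Dbp was at 159 and 133. The animals named with high Npas2 thus came from all 3 groups, while those named with low Npas2 were a virgin and a bonded animal. Pearson's r was −0.88 (permutation p = 3e-05) and Spearman's rho −0.81 (permutation p = 0.00069). Within bonded animals r was −0.84 and within bond-disrupted animals −0.82. Without B6 and BD3, the 2 animals farthest from the median of Npas2, r was −0.87 (permutation p = 0.00068). Without the same 2 animals Npas2 had r = −0.79 with Per3 and −0.61 with Per2 (permutation p = 0.00086 and 0.00248), while its r of −0.61 with Nr1d1, −0.59 with Nr1d2 and −0.35 with Per1 no longer passed (permutation p = 0.0749, 0.0631 and 0.173). Npas2 had a slope of −0.59 ± 0.09 on Dbp (adjusted p = 0.026, limma), which kept its call when families were blocked (adjusted p = 0.0944) and lost it without B2, V2 or V5 (highest adjusted p = 0.196) and after the additive fit (adjusted p = 0.344). Taken the other way round, Dbp was the 1 gene of 14342 (0.00697%) that followed Npas2 (slope −1.31 ± 0.19, adjusted p = 0.0672, limma), and that call was lost in 13 of 17 fits that left out 1 animal (adjusted p from 0.0283 to 0.686), after the additive fit (adjusted p = 0.438) and with a pseudocount of 0.1 (adjusted p = 0.102).

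**Figure D5:**
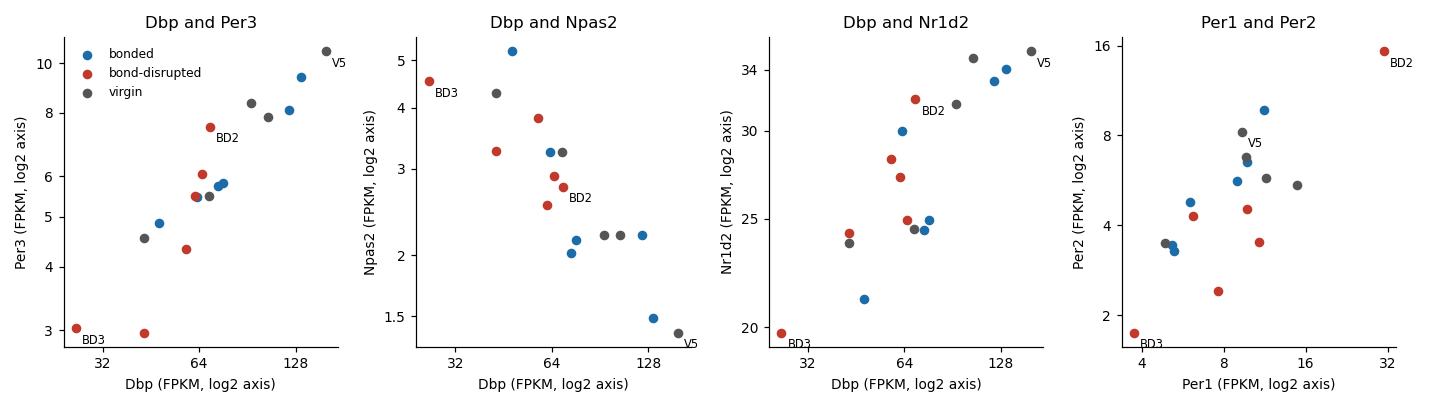
Per3, Npas2 and Nr1d2 against Dbp, and Per2 against Per1, in FPKM per own gene length on log2 axes, 1 point per animal in blue for bonded, red for bond-disrupted and grey for virgin animals. Per3 and Nr1d2 rise with Dbp from BD3 to V5 and Npas2 falls, while in the last panel BD2 stands apart at 30.9 for Per1 and 15.3 for Per2.

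The REV-ERB genes sided with Dbp. Nr1d2 lay at 21.2, 27.5 and 34.1 FPKM in bonded animals, at 19.8, 26.1 and 32.0 in bond-disrupted animals and at 23.8, 31.7, 24.5, 35.3 and 34.9 in V2 to V6. Its r with Dbp was 0.88 (permutation p = 1e-05, the smallest these permutations can give) and rho was 0.86 (permutation p = 8e-05). The r was 0.85 within bonded and 0.89 within bond-disrupted animals, and 0.86 (permutation p = 0.0002) without V5 and V6. Of all genes, 3 (0.0209%) followed Nr1d2 in limma, namely Dbp, Tef and Nfil3. All 3 belong to the clock and bind the same kind of DNA element. Dbp rose by 2.04 ± 0.29 per unit of Nr1d2 (adjusted p = 0.0171, limma), a call that was lost without BD3 (adjusted p = 0.158), when families were blocked (adjusted p = 0.368) and after the additive fit (adjusted p = 0.694). Taken the other way round, the call of Nr1d2 on Dbp (slope 0.38 ± 0.06, adjusted p = 0.0462, limma) was lost in 6 of 17 fits that left out 1 animal, those without B2, B5, B6, BD3, V2 or V5 (highest adjusted p = 0.357), when families were blocked (adjusted p = 0.716) and after the additive fit (adjusted p = 0.545). With family and group means both subtracted, r between Nr1d2 and Dbp was 0.90, no smaller than with group means alone. The PAR bZIP gene Tef rose with Nr1d2 (r = 0.91, adjusted p = 0.0171, limma). Nfil3, a repressor at the sites that DBP, TEF and HLF activate, fell with it (r = −0.90, adjusted p = 0.0171, limma). Both calls were lost when families were blocked and after the additive fit, where 0 genes followed Nr1d2. Without BD3, 1 gene followed Nr1d2, with a negative slope, so the call of Tef was lost there too. Nfil3 was highest in BD3 (3.92 FPKM), the animal with the lowest Nr1d2, and lowest in V6 (0.805).

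Nr1d1 spanned nearly the same fold range as Nr1d2 (1.77 against 1.79). It lay at 105, 117 and 136 FPKM in bonded, 92.7, 109 and 125 in bond-disrupted and 109, 132, 96.7, 164 and 146 in V2 to V6. Its r was 0.85 with Nr1d2 (permutation p = 4e-05; rho = 0.87, permutation p = 5e-05) and 0.79 with Dbp (permutation p = 0.0006; rho = 0.83, permutation p = 0.00037). Without V5 and V6 these were 0.84 and 0.71. In the limma fit on its level, 0.0% of genes were called and 1025 of 14342 had an unadjusted p under 0.05. The lowest adjusted p in that fit was 0.286.

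The Period genes had positive r with one another, from 0.63 to 0.87. The weakest pair, Per1 with Per3 (r = 0.63, permutation p = 0.0125; rho = 0.55, permutation p = 0.0354), had r = 0.52 (permutation p = 0.0654) without BD2 and 0.44 (permutation p = 0.144) without BD2 and BD3, and was not called in limma in either direction (adjusted p = 0.181 and 0.881). Per1 lay at 5.18, 7.47 and 11.2 FPKM in bonded animals, at 3.75, 8.70 and 30.9 in bond-disrupted animals and at 4.85, 11.5, 14.9, 9.34 and 9.63 in V2 to V6. Per2, the repressor whose loss shortens or abolishes rhythms in mice, lay at 3.29, 5.21 and 9.77 in bonded animals, at 1.75, 3.90 and 15.3 in bond-disrupted animals and at 3.48, 5.76, 5.45, 8.24 and 6.77 in V2 to V6. BD2 was far above all others in both genes and BD3 was lowest in both. The r between them was 0.87 (permutation p = 0.00042) and rho was 0.69 (permutation p = 0.0048). Without BD2 it was 0.73 (permutation p = 0.0037), and without both BD2 and BD3 it was 0.66 (permutation p = 0.0167).

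Per2 and Per3 gave r = 0.87 (permutation p = 2e-05) and rho = 0.90 (permutation p = 2e-05), and without BD2 and B2 r was 0.90. Per2 and Dbp gave r = 0.77 (permutation p = 0.00019) and rho = 0.89 (permutation p = 1e-05, the smallest possible). Their r was 0.94 without BD2 and B2, and BD2 had 69.2 FPKM of Dbp. Of all genes, 11 (0.0767%) followed Per2 in limma, among them Per1 (slope 0.91 ± 0.13, adjusted p = 0.0199), Per3 (slope 0.54 ± 0.08, adjusted p = 0.0317) and, from the clock list, the cell cycle kinase Wee1 (adjusted p = 0.0454). Per1 lost its call on Per2 without BD2 or BD3 (highest adjusted p = 0.829) and Per3 without BD3 (adjusted p = 0.123). When families were blocked both had an adjusted p of 0.297 (limma), although with family and group means both subtracted r was still 0.87 between Per1 and Per2 and 0.89 between Per2 and Per3. After the additive fit both calls held (adjusted p = 0.00797 for Per1 and 0.0444 for Per3, limma). Wee1 lost its call on Per2 when families were blocked, where 0 genes followed Per2.

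For Per3, 4 genes (0.0279%) followed in limma: Dbp (slope 1.34 ± 0.16, adjusted p = 0.00474), Per2 (slope 1.40 ± 0.21, adjusted p = 0.0523), Hlf (adjusted p = 0.0757) and, with a negative slope, Rnf112 (adjusted p = 0.0757), a ubiquitin ligase gene. Dbp kept this call without each animal in turn (adjusted p from 8.86e-04 to 0.0392) and when families were blocked (adjusted p = 0.0859), and lost it after the additive fit (adjusted p = 0.338). Per2 lost it without any of 6 animals (highest adjusted p = 0.251), when families were blocked (adjusted p = 0.729), after the additive fit (adjusted p = 0.117) and with the depth of the library as a further term (adjusted p = 0.116). Its slope was 1.32 under the family block and 1.40 with depth as a term, close to the 1.40 without either.

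For Per1, 134 genes (0.934%) followed, 86 upward and 48 downward, but 0 did without BD2. The count was 39 without BD3, 45 without B2, 55 without BD6, 80 without B1, 84 without V5 and 89 without V3, and 203 without BD1, 269 without V4 and 685 without B6. It was 14 when families were blocked, 27 after the additive fit, 84 with depth as a further term, 82 with a pseudocount of 0.1 and 1 as deposited. Among the 134, Per2 was the 1 clock gene (slope 0.83 ± 0.12, adjusted p = 0.0154, limma). Wee1 (r = 0.86, adjusted p = 0.0189) and the deubiquitinase gene Usp2 (r = 0.76, adjusted p = 0.0757) of the clock list were among them too. Without BD2 the adjusted p of Per2 was 0.733, when families were blocked it was 0.107, and after the additive fit it was 0.0036. BD2 was the highest of all 17 animals in Wee1 (18.9 FPKM), Usp2 (11.8) and Bmal1 (3.71) as well. The value of Per1 in BD2 did not solve to whole reads.

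Per1 carries a glucocorticoid response element in mammals, and genes that glucocorticoids induce were measured beside it. Tsc22d3, a classical glucocorticoid target, was at 22.5 FPKM in the lowest animal, 39.0 at the median and 141 in BD2, with 88.4 the next highest value. It followed Per1 (slope 0.91 ± 0.09, r = 0.94, adjusted p = 4.95e-04, limma), with r = 0.88 but an adjusted p of 0.151 without BD2. Klf9, also a glucocorticoid target, was at 100.3 FPKM in BD2 against at most 57.5 elsewhere (r with Per1 = 0.77, adjusted p = 0.0757), and without BD2 r was 0.50 (adjusted p = 0.808). Fkbp5 was at 33.2 FPKM in BD2 against at most 11.3 elsewhere and did not pass on Per1 (r = 0.40, adjusted p = 0.429), and without BD2 its r was −0.41 (adjusted p = 0.808). Sgk1 did not pass either (r = −0.08, adjusted p = 0.911), with r = −0.56 without BD2 (adjusted p = 0.808). The immediate early genes Fos, Egr1, Junb and Dusp1, which many acute stimuli raise, lay within the range of the other animals in BD2, and their r with Per1 was −0.20 to 0.36. Zbtb16 and Nr4a1 of the same lists were not used here, because not all their values were solved. Whether glucocorticoids had a part in the level of Per1 was not tested.

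Clock and Cry1 had no pair of this kind over all animals. Clock had no pair with a permutation p under 0.05, its largest r being 0.39 with Npas2 (permutation p = 0.149; rho = 0.19, permutation p = 0.487). Its r differed in sign between bonded and bond-disrupted animals for all other clock genes but Cry2 (0.06 and 0.25), and was not computed within virgins. Within the 6 bonded animals it was −0.90 with Per1, −0.93 with Per2, −0.86 with Per3 and −0.80 with Dbp. Within the 6 bond-disrupted animals these values were 0.41, 0.56, 0.76 and 0.55, and the difference between the groups was not tested. In limma 1377 genes (9.60%) followed Clock, 671 upward and 706 downward, with 0 clock genes among them, but the count was 0 without BD1, 357 without V2 and 711 without BD4. It was also 0 after the additive fit and as deposited, and 601 when families were blocked. Rorb, one of the ROR receptors, was the 1 gene of the clock list among the 1377 (adjusted p = 0.0854, limma), at 0.109 to 1.04 FPKM. Cry1 was within 5.82 to 7.18 FPKM in all bonded and bond-disrupted animals. No gene (0.0%) followed it in limma (620 of 14342 at an unadjusted p under 0.05, lowest adjusted p = 0.605). Its r with the other clock genes was −0.33 to 0.27.

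Cry2 had 4 pairs with a permutation p under 0.05. Its r was 0.51 with Nr1d1 (permutation p = 0.0168; rho = 0.68, permutation p = 0.0048), 0.70 with Nr1d2 (permutation p = 0.00238; rho = 0.77, permutation p = 0.00103), 0.56 with Dbp (permutation p = 0.0229; rho = 0.56, permutation p = 0.0265) and 0.55 with Per3 (permutation p = 0.029; rho = 0.54, permutation p = 0.0362). Without B4 and BD3, r was 0.70 with Nr1d2, 0.56 with Nr1d1 (permutation p = 0.0311) and 0.50 with Dbp (permutation p = 0.0585). Its r with Per3 was 0.49 without B2 and V5 (permutation p = 0.0881) and 0.44 without BD2 (permutation p = 0.0964). Of all genes, 5 (0.0349%) followed Cry2 in limma, and none of them was a clock gene. Among them were Chit1, Fam181b and the unnamed LOC128095162 and LOC128107587.

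In all, 10 of the 90 ordered pairs of clock genes were called in these limma fits, that is, in both directions for 5 pairs: Dbp with Per3, Dbp with Npas2, Dbp with Nr1d2, Per1 with Per2, and Per2 with Per3. The count was 0 as deposited, 3 after the additive fit, 4 when families were blocked and 9 with depth as a further term or with a pseudocount of 0.1. The 3 were Per2 on Per1, Per1 on Per2 and Per3 on Per2, and no relation of Dbp was among them. The 4 were Dbp with Per3 and Dbp with Npas2, in both directions. Over all genes, the share called in the main fits was 9.60% for Clock, 0.934% for Per1 and at most 0.0767% for each other clock gene.

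Beyond the clock genes themselves, the clock list took sides along the same axis. Hlf had r = 0.88 with Dbp (adjusted p = 0.026, limma) and 0.85 with Per3. Its calls on Dbp and on Per3 were both lost when families were blocked. Its values ran from 1.57 FPKM in BD1 and BD3 to 7.18 in V5. Tef had r = 0.75 with Dbp, 0.80 with Nr1d1 and 0.84 with Cry2. Nfil3 had r = −0.81 with Dbp and 0.67 with Npas2, and Noct, which encodes a rhythmic phosphatase of NADP cofactors, −0.82 and 0.68. Bmal1 had r = −0.66 with Dbp and 0.64 with Npas2, so that it sided with Npas2. None of these values of Tef, Nfil3, Noct and Bmal1 was called in limma, those of Tef with Nr1d1 (adjusted p = 0.286) and Cry2 (adjusted p = 0.12) included. The casein kinase gene Csnk1e, the ubiquitin ligase gene Btrc, and Rora, whose product competes with the REV-ERBs, had an absolute r with Dbp of at most 0.55.

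Outside these lists, the genes most like Dbp among 12785 with a mean of at least 1 FPKM included Ttc19 (r = 0.77), Tspan4 (0.75), LOC128098711 (0.74) and Tfap4 (0.73). None of these reached the r of Dbp with Per3, Nr1d2 or Hlf. The most opposite were Ddx39a (−0.88), Nsmaf (−0.81), LOC128122328 (−0.81), Rnf112 (−0.80) and Gramd1b (−0.79). Among those most like Npas2 were Abcg4 (0.78), Sh3gl2 (0.77), Ddx39a (0.76) and Tmem171 (0.75). Most opposite to Npas2 were Pts (−0.82), Trnay-gua (−0.76), Dpt (−0.75), Vsig2 (−0.73) and LOC128104590 (−0.73). Ddx39a, from 10.1 to 27.4 FPKM, was in both groups of 5, against Dbp and with Npas2.

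Relatives were compared in 6 pairs of brothers, 1 bonded and 1 bond-disrupted. No clock gene was called between families (limma, F test), where 17 of 14218 genes (0.12%) were. At an unadjusted p under 0.05, 9.53% of genes passed, and so did 2 of the clock genes, Per2 (adjusted p = 0.414, limma) and Per1 (adjusted p = 0.425, limma). In both genes B2 was the highest bonded and BD2 the highest bond-disrupted animal, while their brother V2 was the lowest virgin. Over the 6 pairs of brothers, r was 0.81 for Nr1d1, 0.80 for Per1, 0.73 for Per2, 0.60 for Nr1d2, 0.41 for Per3, 0.24 for Dbp and 0.07 for Cry2. It was −0.14 for Npas2, −0.41 for Cry1 and −0.72 for Clock. Of the 10 values, 1 had an exact permutation p under 0.05 (two-sided, over 720 pairings), that of Per1 (exact p = 0.025), and the exact p of the others was 0.0583 (Nr1d1) to 0.883 (Cry2). This exact test was not run on all genes, so no share of all genes stands beside that count.

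The libraries held lung RNA by their markers. The summed level of the measured alveolar type 2 markers (3 of 5) was 14778 to 32039 FPKM and that of club cells (2 of 3) 49399 to 172910, while the 3 thymus markers summed to at most 0.739. Cardiac muscle markers (5 of 8) varied from 37.5 to 427 FPKM. The depth of the libraries was 30.8 to 68.2 in units of 1000000 reads and its r with clock genes was −0.24 to 0.22. With Dbp, no summed list of cell markers had an absolute r above 0.362, which was that of lymphocyte markers. For Npas2 the largest was −0.39 with alveolar type 2 markers, and for Nr1d2 −0.55 with lymphocyte markers. Per1 had −0.51 with neutrophil and 0.51 with ciliated cell markers, Cry2 had −0.62 with neutrophil and Clock −0.51 with ciliated cell markers. The part of these cells in the relations was not tested. In whole lung, fewer cells of a type and less RNA per cell cannot be told apart.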

How the data were processed

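Lung RNA of 17 animals was sequenced. The submitters' processing notes name FastQC, Trim Galore 0.4.5, STAR 2.7.2, SAMtools 1.5 and featureCounts of Subread 1.5.3; the genome build and annotation are not given in the sources used here. The authors deposited FPKM for 27786 genes, 1 column per animal and 0 columns left over. Symbols were matched to RefSeq (all 27786).

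In the deposited FPKM each column was divided by the length of a gene some rows above. Depths and 26319 of 27787 lengths were solved as the values that make FPKM times length times depth a whole number of reads, and 98.6% of 316097 checked values were whole within 0.01. Most read numbers were even, so depth is known up to a factor of 2, which does not change FPKM. Genes with all values and their own length solved numbered 24274. Solving and tests were tested on simulated data.

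Own-length values were analysed as log2(FPKM + 1) with limma 3.58.1 in R 4.3.3, for the 14343 genes that reached 1 FPKM in any animal. The 3 groups entered one fit. Tests were two-sided, with Benjamini-Hochberg adjustment over all genes, and a call needed an adjusted p under 0.1 and, between groups, at least 2-fold. Correlations used animals with group means subtracted and 100000 permutations within groups (Python 3.11.15, numpy 2.4.6, scipy 1.17.1). A fold change on this scale understates that of low genes.

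Numbers of animals mark families in the study. Over the 1000 most variable genes, with group means removed, r exceeded 0.1 in all 6 pairs of a bonded animal and its bond-disrupted brother but in none of the 10 pairs with a virgin (r from −0.252 to 0.405 over all 16), so families were also fitted as a block. Each animal is 1 replicate.

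The clock genes, the clock list and the other lists were chosen with earlier results of these data known. Named besides them are the 5 genes with the highest and the 5 with the lowest r with Dbp and with Npas2, and genes of a fit with 5 or fewer calls, the latter chosen after their values were seen; some genes these rules name are not reported here. Alternatives were the deposited values, an additive fit, other pseudocounts, filters and scalings, voom, blocks, depth as a further term and leaving out animals. Gene lengths are those solved, and no sequences were used here.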

Additional observations from a re-analysis of the deposited data

Results flagged for a closer look

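Of 30 groups examined (10 clock genes in 3 groups), 3 held an animal whose gap to the nearest other animal took up more of the group's range than Dixon's 95% critical value (0.625 for 6 animals, 0.71 for 5). Chance flags about 1 in 20 groups. Per1 in bond-disrupted animal BD2 was at 30.9 FPKM, with the next animal at 10.8 and a gap of 0.742 of the range. That value did not solve to a whole number of reads, so it is less certain. Per2 in the same animal was at 15.3 FPKM, with the next at 4.54 and a gap of 0.794 of the range. Cry1 in virgin V4 was at 8.78 FPKM, with the next virgin at 6.20 and a gap of 0.718 of the range. Without BD2, r between Per1 and Per2 was 0.73 in place of 0.87, and without V3 and V4 the r of Cry1 with Nr1d1 was 0.25 in place of −0.33.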

How the results depend on the processing

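No clock gene was called between groups under any alternative. Of their 30 log2 fold changes, none of them past the threshold, 11 changed sign as deposited and at most 3 under any other alternative. As deposited, 40, 113 and 35 genes were called in bond-disrupted against bonded, virgin against bonded and virgin against bond-disrupted animals. In each of these 3 comparisons leaving out 1 animal gave 0 to 1 genes: LOC128094431 in the first 2 without B4, and Mettl13 in the third without V2. Pairs of clock genes with a permutation p under 0.05 numbered 24, but 6 as deposited, 16 without the 2 animals farthest from the median and 19 to 27 without 1 animal. After the additive fit 26 of the 45 pairs passed, with a median absolute r of 0.549 and 3 changes of sign. Called ordered pairs numbered 10, but 0 as deposited, 3 after an additive fit and 4 with the family number as a replicate block. They numbered 9 with a pseudocount of 0.1, which ended the call of Dbp on Npas2 (adjusted p = 0.102, limma), and 9 with depth as a further term, which ended that of Per2 on Per3 (adjusted p = 0.116, limma). Without 1 animal they numbered 4 to 11, with 4 without BD3 and 6 without B2 or V2. The replicate block left the 3 group comparisons at 0 called genes and took the genes following Clock from 1377 to 601 and those following Per1 from 134 to 14, Per2 from 11 to 0, Dbp from 5 to 2, Cry2 from 5 to 0, Per3 from 4 to 1 and Nr1d2 from 3 to 0. Without 1 animal, the genes following Per2 (11 in all animals) numbered 2 (without BD3) to 108 (without B6), Nr1d2 (3) 1 (without BD3) to 69 (without B6), Dbp (5) 1 (without B2 or V2) to 8 (without B6), Per3 (4) 1 to 10 (without B6), Cry2 (5) 0 to 8 (without V3) and Npas2 (1) 0 to 1. As deposited, r changed sign in 13 of 45 pairs, of which 8 passed p under 0.05 in either set of values: Npas2 with Nr1d1 (0.36), Per3 with Cry2 (−0.25) and with Nr1d1 (−0.22), Cry1 with Nr1d1 (0.59), Cry2 with Nr1d2 (−0.55) and with Dbp (−0.0088), and Nr1d1 with Nr1d2 (−0.35) and with Dbp (−0.19). The deposited values hold the lengths of other genes by construction. The causes of the other changes were not tested. The fewest reads behind a clock gene were 244, and 17 animals limit the precision of r.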
